A study of Mus musculus with 4 samples.

Results

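The acrosome is the secretory cap of the sperm head, and 10 genes whose products lie in it or carry out sperm-egg contact were followed here in RNA sequencing of whole mouse testis. They were taken by symbol from the deposited count table, and all 10 were found among its 49492 gene rows. Of these, 5 encode acrosomal contents (Acr, Acrbp, Acrv1, Zpbp and Zpbp2) and the others encode acrosomal membrane or sperm surface proteins (Spaca1, Spaca3, Spaca4, Izumo1 and Spam1). All 10 passed the filter on low counts, so that none was left out of the tests. The libraries come from male C57BL/6J mice that all received LPS (lipopolysaccharide, a bacterial product that activates innate immunity), by the labels. There are 2 libraries labelled shSpry1, with the genotype Spry1 knockdown, and 2 labelled shControl, with the genotype WT. Not given in the sources used here are the hairpin sequences, their route of delivery and the cells they reached, the age of the animals, and the dose and timing of LPS. Nothing says that the replicates are separate animals, so a p-value measures the spread between libraries that may be technical.

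In the table the columns bear the names LPS and NC. NC was taken for the control hairpin and LPS for the knockdown, although LPS stands in the title of each sample, so the match is a reading of names. The text speaks of LPS columns and NC columns for this reason; should the names mean LPS and no LPS, each difference below is one between those states. Spry1 counts were 26 and 17 in the LPS columns against 45 and 41 in the NC columns (log2 fold change -0.82 ± 0.28, SE), values already seen when the names were read and so no separate check. The 10 genes took 0.158% and 0.149% of all counts in the LPS columns and 0.157% in each NC column, so that the groups overlapped in this unscaled share. A library held 17612342 to 22451132 counts, and each of the 10 genes had 318 counts or more in every library. Both LPS libraries held fewer counts in total than both NC libraries, and the part of depth in the results was not tested.

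As background, the acrosome forms from Golgi vesicles in round spermatids and spreads over the nucleus as the spermatid elongates. At fertilization it releases enzymes that help sperm through the egg's coats and exposes proteins such as IZUMO1, which binds its receptor on the egg. In the testis these genes are expressed mainly in germ cells, from late spermatocytes to spermatids. In whole testis, fewer cells of a type and less RNA per cell cannot be told apart.

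Promoter sequences of 4 genes are shown so that the genes at both ends of the results below can be compared: Spam1 and Acrv1, called lower, Spaca1, called higher, and the fusion gene Izumo1, not called. They are RefSeq sequence of GRCm38.p6, the build that mm10 names, written 5′ to 3′ on the gene's strand, and each ends at the base before the gene model of the count table. They cover chr6:24790938-24791187 (plus strand) for Spam1, chr9:36692970-36693219 (plus) for Acrv1, chr4:34050192-34050315 (minus) for Spaca1 and chr7:45621561-45621810 (plus) for Izumo1. Motifs searched on both strands were the cAMP response element TGACGTCA, its variant TGACGTAA, their shared core TGACGT (which overlaps both), GTTGCC, part of the sites of RFX factors, and the repeat GTGTGT. Capitals mark matches.
Spam1: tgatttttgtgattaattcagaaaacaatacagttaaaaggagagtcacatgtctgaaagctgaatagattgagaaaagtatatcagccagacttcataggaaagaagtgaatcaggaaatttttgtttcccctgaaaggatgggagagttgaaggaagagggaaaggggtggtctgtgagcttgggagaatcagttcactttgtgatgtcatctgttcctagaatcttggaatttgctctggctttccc
Acrv1: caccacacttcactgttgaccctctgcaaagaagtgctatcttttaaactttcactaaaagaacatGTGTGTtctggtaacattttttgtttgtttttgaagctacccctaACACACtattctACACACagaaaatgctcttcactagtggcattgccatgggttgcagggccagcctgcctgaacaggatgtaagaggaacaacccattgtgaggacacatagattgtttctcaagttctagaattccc
Spaca1: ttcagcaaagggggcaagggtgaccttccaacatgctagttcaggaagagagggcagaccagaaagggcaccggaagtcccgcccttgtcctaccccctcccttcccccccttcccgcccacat
Izumo1: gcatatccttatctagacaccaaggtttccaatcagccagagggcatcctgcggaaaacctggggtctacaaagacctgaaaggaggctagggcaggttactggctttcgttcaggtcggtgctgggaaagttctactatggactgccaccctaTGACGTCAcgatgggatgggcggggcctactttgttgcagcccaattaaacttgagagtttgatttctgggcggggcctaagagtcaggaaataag

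The motif search used windows from 250 bases before to 50 bases after each RefSeq start, which were found for 9 of the 10 genes, all but Acr. The full element TGACGTCA, which the germ cell factor CREM is known to bind, stood in the window of 1 of the 9 genes, Izumo1, beginning 96 bases before the start, and in 1.79% of all 32851 windows. The core TGACGT was in the windows of Izumo1 and Acrbp, 18 bases before the RefSeq start of Acrbp, and in 7.51% of all windows. That start, at 125049927, lies inside the Acrbp gene model of the count table, which begins at 125049689. GTGTGT or its reverse complement ACACAC occurred 3 times before the start of Acrv1, in no window of the other 8 genes and in 17.4% of all windows. GTTGCC was found for Acrbp alone among the 9 and in 12.5% of all windows, and TGACGTAA for none and in 0.499%. The stretches of Spam1 and Spaca1 hold none of the 5 motifs and differ in GC content, at 39.6% and 61.3%, beside 42.0% for Acrv1 and 51.6% for Izumo1. The stretch of Spaca1 is shorter, with 124 bases against 250 for each of the others. In windows of equal length the GC content was 39.7% for Spam1 and 63.0% for Spaca1. A match is a string of letters and not a shown binding site.

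The 10 genes differed widely in level. TPM divides counts by gene length, scales them to the same total in each library and so allows genes to be compared with each other within a library. In the NC columns Spaca1 was highest at 582 ± 1.18 TPM (SD, n = 2), followed by Acrbp at 436 ± 6.32, Acr at 232 ± 4.71 and Zpbp2 at 187 ± 0.767. Acrv1 at 84.8 ± 2.52 TPM and Spaca4 at 82.6 ± 3.88 TPM overlapped in their NC libraries. Spaca3, at 57.7 ± 0.884 TPM, Izumo1, at 36.3 ± 0.031, Spam1, at 31.0 ± 1.17, and Zpbp, at 23.8 ± 0.494, made up the lower part of the order without overlap between neighbours. Over the 4 libraries the mean TPM of Spaca1 ranked 203 among the 20855 genes tested, and that of Zpbp ranked 5630.

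In the LPS columns the order differed at 2 places. Spaca4 stood above Acrv1 without overlap, at 83.7 ± 9.21 TPM against 73.8 ± 0.502 TPM. Spaca1 stood at 747 ± 42.6 TPM (SD, n = 2) and Acrbp at 374 ± 10.1 TPM, so that their ratio per library was 2.04 and 1.95 in the LPS columns against 1.32 and 1.35 in the NC columns. Spam1 moved to the end of the order at 21.4 ± 2.14 TPM, where it overlapped Zpbp at 21.5 ± 1.75 TPM. The ratio of Zpbp2 to Zpbp, the paralogous pair, was 8.97 and 9.67 in the LPS columns and 7.74 and 7.92 in the NC columns.

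**Figure D1:**
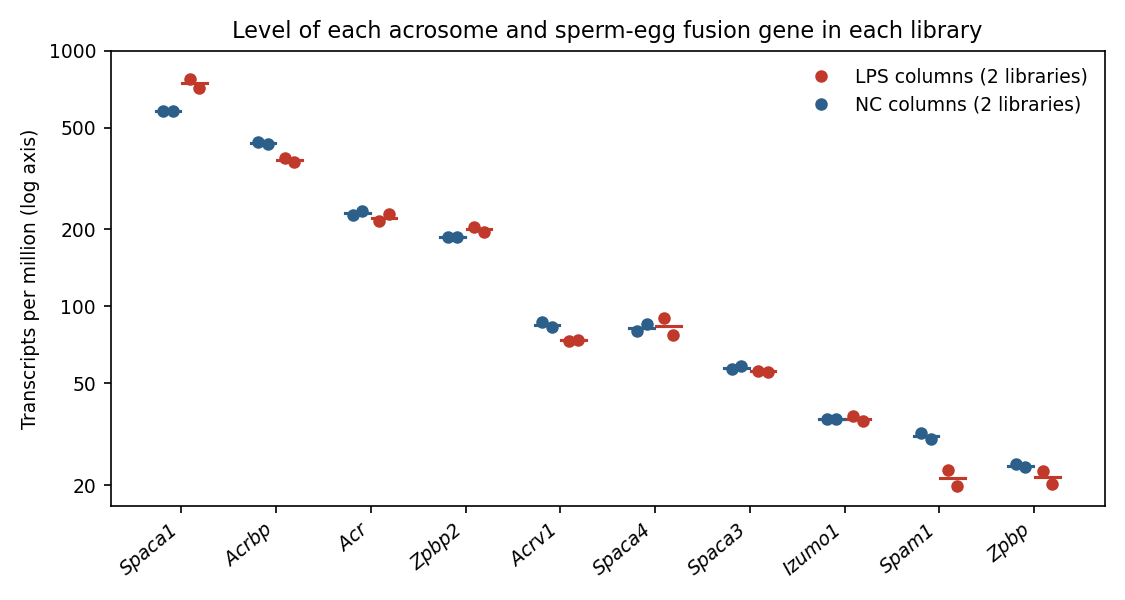
Level of each of the 10 genes in each library, in TPM on a log axis, ordered by the NC mean, with points for single libraries and short lines for group means. Spaca1 is highest in all 4 libraries at 581 to 777, both of its red LPS points lie above its blue NC points, and both LPS points of Spam1 lie below its NC points. Both LPS points of Zpbp2 also lie above its NC points in TPM, which does not hold in CPM.

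Between the groups, 5 of the 10 genes were lower in the LPS columns, 1 was higher and 4 were not called. The test was edgeR's quasi-likelihood test on counts, adjusted after Benjamini-Hochberg over the whole table, and genes were called at an adjusted p under 0.05. Among all 20855 genes tested, 16.3% were called lower and 15.2% higher, so that calls in both directions were common in this comparison. These shares are 3394 and 3169 genes, against 2579 (12.4%) lower and 4207 (20.2%) higher when counts were scaled by library size alone. The median log2 fold change of the 10 genes was -0.15, beside 0.0023 over all genes tested. Differences were small: the LPS mean lay between 64.7% and 120% of the NC mean. In CPM, counts divided by TMM-scaled library size, the LPS libraries both lay below the NC libraries in 7 of the 10 genes and both above in 1, where 32.0% and 32.1% of all genes tested did so.

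Among the acrosomal contents, Acrbp, Acrv1, Zpbp and Acr were lower and Zpbp2 was not called. Acrbp, which encodes the proacrosin-binding protein, had 506 and 485 CPM in the LPS columns and 617 and 615 CPM in the NC columns. These groups did not overlap, and the log2 fold change was -0.31 ± 0.05 (SE; edgeR, adjusted p = 6.30e-06). Acrbp shares 975 exonic bases on the same strand with the gene model Gm44597, which itself had 5436 to 7662 counts and was called lower (log2 fold change -0.27 ± 0.05), so that the assignment of reads between them is uncertain. On the opposite strand Acrbp shares 90 exonic bases with Gm43989, which had 250 to 331 counts and was not called. Acrbp lies on chromosome 6, from 125049689 to 125063267 on the plus strand in mm10.

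Acrv1, which encodes the acrosomal vesicle protein SP-10, had 108 and 109 CPM in the LPS columns against 135 and 132 CPM in the NC columns. The 2 libraries of each group were nearly alike, and the LPS mean was 81.5% of the NC mean (log2 fold change -0.29 ± 0.06, SE; edgeR, adjusted p = 8.40e-05). Acrv1 lies on chromosome 9, from 36693220 to 36698843 on the plus strand, and overlaps no other gene of the table.

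Acr, the gene of the protease acrosin (chromosome 15, 89568326 to 89574585, plus strand), had 131 and 139 CPM in the LPS columns and 147 and 154 CPM in the NC columns. Its groups did not overlap, but the nearest values, 139 and 147 CPM, were no further apart than the 2 LPS libraries. The log2 fold change was -0.15 ± 0.06 (edgeR, adjusted p = 0.0332). DESeq2 did not call Acr (adjusted p = 0.113), nor did edgeR with library size scaling alone (adjusted p = 0.198). The edgeR call also went when NC replicate 1, NC replicate 2 or LPS replicate 1 was left out, with adjusted p of 0.0531, 0.245 and 0.233.

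Zpbp and Zpbp2 encode zona pellucida binding proteins of the acrosomal matrix and lie far apart on chromosome 11, Zpbp from 11279626 to 11462408 on the minus strand and Zpbp2 from 98551097 to 98558665 on the plus strand. Zpbp had 39.2 and 34.8 CPM in the LPS columns and 43.9 and 43.4 CPM in the NC columns. Both LPS libraries were lower, LPS replicate 2 most of all, and the log2 fold change was -0.24 ± 0.07 (edgeR, adjusted p = 0.0116). DESeq2 did not call Zpbp (adjusted p = 0.104), nor did edgeR with library size scaling alone (adjusted p = 0.0728). Leaving out LPS replicate 2 also ended the edgeR call, at a log2 fold change of -0.16 and an adjusted p of 0.215, as did leaving out NC replicate 1 (adjusted p = 0.0702). Zpbp shares 223 exonic bases with 4930415F15Rik on the opposite strand, which was itself lower (552 to 596 counts against 800 to 924), and without a stated strand setting the 2 genes cannot be fully separated.

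Zpbp2 had 139 and 133 CPM in the LPS columns and 135 and 136 CPM in the NC columns. The NC values lay between the LPS values, and the log2 fold change was 0.0089 ± 0.056 with a 95% interval from -0.10 to 0.12 (edgeR, adjusted p = 0.929). In TPM, which has no TMM scaling, both LPS libraries (204 and 196) lay above both NC libraries (187 and 186). The difference between Zpbp and Zpbp2 in fold change was not tested.

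Among the membrane and surface proteins, Spam1 was lower, Spaca1 was higher and Spaca3, Spaca4 and Izumo1 were not called. Spam1 encodes the sperm hyaluronidase PH-20, which loosens the matrix of the cumulus cells around the egg. Spam1 counts were 406 and 318 in the LPS columns, compared with 664 and 598 in the NC columns, or 20.6 and 17.8 CPM against 30.2 and 29.1 CPM. Both LPS libraries lay well below both NC libraries, and the LPS mean was 64.7% of the NC mean. Its log2 fold change, the largest in size among the 10 genes, was -0.62 ± 0.09 (edgeR, adjusted p = 5.31e-07). Spam1 lies on chromosome 6, from 24791188 to 24801048 on the plus strand, and overlaps no other gene of the table.

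Spaca1 encodes a protein of the inner acrosomal membrane that is needed for the acrosome to take shape. It had 9894 and 8235 counts in the LPS columns against 8748 and 8285 in the NC columns, which after scaling were 502 and 461 CPM against 398 and 404 CPM. Both LPS libraries were higher than both NC libraries, although LPS replicate 2 was closer to them. The log2 fold change was 0.27 ± 0.05, with a 95% interval from 0.16 to 0.37 (edgeR, adjusted p = 0.000131). Spaca1 lies on chromosome 4, from 34024874 to 34050191 on the minus strand, and overlaps no other gene of the table. Its ratio to Spam1 in TPM was 33.9 and 36.0 in the LPS columns and 18.3 and 19.2 in the NC columns, a description of 2 genes picked for their opposite differences.

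Izumo1 encodes the sperm protein that binds the egg receptor JUNO and is required for fusion. It had 45.1 and 43.0 CPM in the LPS columns and 46.3 and 47.2 CPM in the NC columns. The groups did not overlap, but Izumo1 did not pass the test, at -0.09 ± 0.07 on the log2 scale with a 95% interval from -0.22 to 0.05 (edgeR, adjusted p = 0.375). Izumo1 lies on chromosome 7, from 45621811 to 45628823 on the plus strand, and shares 654 exonic bases on the same strand with Rasip1, which had 58 to 102 counts and was called lower (log2 fold change -0.49 ± 0.18; edgeR, adjusted p = 0.0343), so that the assignment of reads between them is uncertain.

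Spaca3 encodes a lysozyme-like acrosomal protein (chromosome 11, 80858365 to 80867814, plus strand). Its levels were 21.6 and 21.3 CPM in the LPS columns against 23.2 and 24.1 CPM in the NC columns, close within each group and not overlapping. The log2 fold change was -0.14 ± 0.09, with a 95% interval from -0.32 to 0.03 (edgeR, adjusted p = 0.218). Spaca3 had 380 to 510 counts a library.

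Spaca4 encodes a surface protein of the Ly6 family that takes part in binding to the zona pellucida (chromosome 7, 45725107 to 45725813, minus strand). It lies 96284 bases from Izumo1. Spaca4 had 25.8 and 22.0 CPM in the LPS columns and 24.1 and 26.3 CPM in the NC columns, so that the groups overlapped. Its log2 fold change was -0.07 ± 0.09, with a 95% interval from -0.25 to 0.11 (edgeR, adjusted p = 0.585), smaller than the gap of 0.23 between its 2 LPS libraries.

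**Figure D2:**
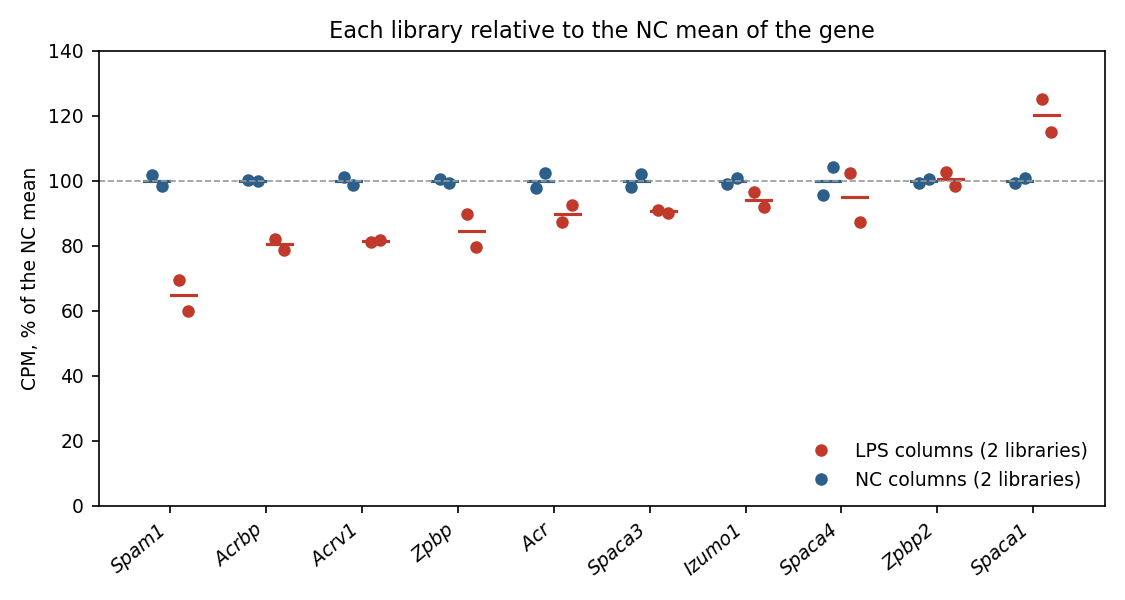
CPM of each gene in each library as a percentage of the mean of its 2 NC libraries, ordered by fold change, with points for single libraries, short lines for group means and a dashed line at 100%. Spam1 sits lowest in the LPS columns at a mean of 64.7%, and Spaca1 is the one gene of the 10 with both LPS libraries above both NC libraries.

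Other genes of the acrosome and of fertilization were taken from 5 lists with 66 names, of which 65 had a row and 63 were tested. Of these, 24 were lower, 3 higher and 36 not called, with a median log2 fold change of -0.11. The 16.3% and 15.2% of all genes called lower and higher stand beside these counts, which come from lists chosen with earlier results of these data known. The name without a row, Pdilp, is a likely slip for Pdilt, which was not put in its place.

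Of 10 other genes of gamete fusion, 7 were lower, 0 higher and 3 not called, with a median log2 fold change of -0.30. Tmem95, a sperm membrane protein gene required for fusion, had 91 and 65 counts in the LPS columns against 146 and 131 in the NC columns (log2 fold change -0.65 ± 0.16, SE), a gene that DESeq2 did not call (adjusted p = 0.0621). Dcst2 was at 15.2 ± 2.89 CPM in the LPS columns and 23.6 ± 0.830 CPM in the NC columns (SD over 2 libraries), and was called lower (-0.63 ± 0.10). Dcst1, its partner in sperm-egg fusion, was also called lower (-0.37 ± 0.07), at 42.6 ± 0.454 CPM against 54.9 ± 2.87 CPM. Of the Izumo1 paralogs, Izumo2 fell by 0.43 ± 0.07 and Izumo3 fell by 0.42 ± 0.07 on the log2 scale, while Izumo4 was at 28.3 ± 1.68 CPM against 28.0 ± 2.17 CPM and was not called.

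Spaca6 and 1700034O15Rik, both also required for fusion, were lower. Spaca6 had 30.2 and 26.6 CPM in the LPS columns and 34.3 and 32.6 CPM in the NC columns (log2 fold change -0.24 ± 0.08). It was not called by DESeq2 (adjusted p = 0.169), by edgeR with library size scaling alone (adjusted p = 0.110), or once NC replicate 1 (adjusted p = 0.171) or LPS replicate 2 (-0.15, adjusted p = 0.294) was left out. 1700034O15Rik, which RefSeq lists as Llcfc1, had a log2 fold change of -0.19 ± 0.06. In edgeR that call ended under library size scaling alone (adjusted p = 0.0811), and once NC replicate 2 (adjusted p = 0.0718) or LPS replicate 2 (-0.10, adjusted p = 0.259) was left out. The 2 remaining genes, 4930451I11Rik at 0.011 ± 0.109 and Tmem81 at 0.30 ± 0.13, were not called, and Tmem81 was called higher under library size scaling alone (edgeR, adjusted p = 0.0355).

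Of 17 other genes of acrosomal contents and membrane, 6 were lower, 0 higher and 11 not called. Spaca7 fell by 0.34 ± 0.06, Zp3r, which encodes an acrosomal matrix protein, fell by 0.43 ± 0.08 and the intramembrane protease gene Sppl2c fell by 0.26 ± 0.06 (log2, SE). Of 15 genes of acrosome biogenesis, 4 were lower, 3 higher and 8 not called. Those lower with the smallest adjusted p were the spermatid actin-related genes Actl7a (log2 fold change -0.26 ± 0.05) and Actl9 (-0.32 ± 0.06), and Cylc2, a gene of the perinuclear theca (-0.47 ± 0.07).

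Cylc2 differed widely between the LPS libraries, with 791 and 573 CPM in the LPS columns against 936 and 959 CPM in the NC columns. Leaving out LPS replicate 2 gave a log2 fold change of -0.26 and leaving out LPS replicate 1 one of -0.72, and DESeq2 did not call Cylc2 (adjusted p = 0.164). The 3 genes that rose act in Golgi and vesicle traffic, which many cell types share: Gopc by 0.39 ± 0.07, Smap2 by 0.32 ± 0.08 and Vps54 by 0.32 ± 0.10. From which cells their transcripts came was not tested. Vps54 was not called by DESeq2 (adjusted p = 0.151), nor by edgeR once NC replicate 1 (adjusted p = 0.0701) or LPS replicate 1 (adjusted p = 0.0957) was left out.

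Of 7 tested genes of exocytosis and egg activation, 2 were lower, 0 higher and 5 not called. The phospholipase gene Plcd4, whose product acts in the acrosome reaction, fell by 0.30 ± 0.05 and Fam170b fell by 0.42 ± 0.05 (log2, SE). Of 14 tested genes of zona binding and sperm migration, 5 were lower, 0 higher and 9 not called. Adam1a fell by 0.29 ± 0.05, Adam3 fell by 0.21 ± 0.05 and Ly6k fell by 0.32 ± 0.08. Adam3 was no longer called by edgeR once LPS replicate 2 was left out (adjusted p = 0.0513), and Ly6k once NC replicate 2 was (adjusted p = 0.129).

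**Figure D3:**
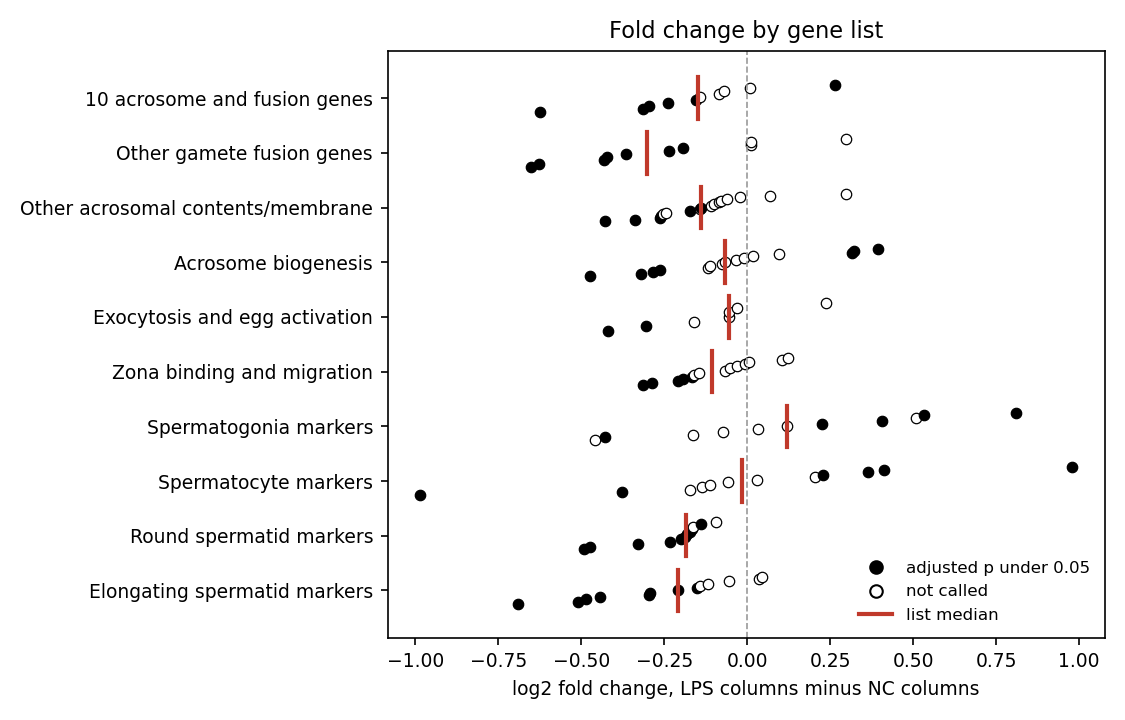
log2 fold change (LPS columns minus NC columns) of every tested gene in the 10 genes studied, in 5 lists of related genes and in 4 lists of germ cell markers, with filled points for an adjusted p under 0.05 and red lines for medians. The medians of the 10 genes (-0.15), of round spermatid markers (-0.18) and of elongating spermatid markers (-0.21) lie close together, and Spaca1 stands to the right of every spermatid marker.

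Spermatids are the cells in which the acrosome forms, and their markers were counted beside the 16.3% of all genes called lower and 15.2% called higher. The marker lists were chosen with earlier results of these data known, so their counts and medians are description only. Of 12 round spermatid markers, 10 were lower, 0 higher and 2 not called, with a median log2 fold change of -0.18. Their summed level was 1969 to 1974 CPM in the LPS columns and 2270 to 2272 CPM in the NC columns, and Tekt1, Tssk2 and Sox30, the 3 with the most counts, were all lower. Of 13 elongating spermatid markers, 8 were lower, 0 higher and 5 not called, with a median of -0.21 and a summed level of 17866 to 18251 CPM against 24116 to 24958 CPM. Prm2, Tnp2 and Tnp1, of chromatin compaction, led these counts, and Prm2 was at -0.69 ± 0.05. Prm2 alone was at 6503 CPM in the LPS columns and 10485 CPM in the NC columns, so a few genes weigh most in the sum. Over all genes, CPM summed to 973301 to 986184 in the LPS columns and 1020210 to 1027320 in the NC columns, so summed levels start lower in the LPS columns. No marker of either list was at 0.

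Over the 25 spermatid markers tested, log2 fold changes ran from -0.69 to 0.04. Spam1 lay near the low end of that range, with 1 marker below it, and Spaca1 lay above all 25. The part of spermatid number or RNA content in the differences of the 10 genes was not tested.

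Earlier germ cells did not share one direction. Of 12 spermatocyte markers, 4 were higher, 2 lower and 6 not called (median -0.015, summed level 1154 to 1300 CPM against 1223 to 1230 CPM). Piwil1 was higher, Sycp1 lower and Sycp2 not called, and LPS replicate 2 stood apart in Sycp1, with 2708 counts against 4554 in LPS replicate 1. Of 11 tested spermatogonia markers, 4 were higher, 1 lower and 6 not called (median 0.12, summed level 486 to 487 CPM against 465 to 484 CPM), with Stra8 and Id4 higher and Dmrtb1 not called. Most of that sum was Dmrtb1, at 353 CPM in the LPS columns and 372 CPM in the NC columns.

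Somatic cell markers also differed between the groups. Sertoli cell markers were higher in 6 of 10 and lower in 1, with a summed level of 986 to 1014 CPM against 758 to 764 CPM. Most of that sum was Clu, at 769 CPM in the LPS columns and 560 CPM in the NC columns. Clu and Aard were higher and Amhr2 lower. Leydig cell markers were lower in 5 of 8 and higher in 1, at 452 to 522 CPM against 866 to 906 CPM. Insl3 was not called, and Cyp17a1 and Star were lower. Macrophage markers were higher in 6 of 10 and lower in 3, at 89.2 to 99.3 CPM against 58.8 to 65.2 CPM. Lyz2 was higher, and Mrc1 and Csf1r were lower.

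Of 6 neutrophil markers, 2 were tested, Mpo and S100a9, and both were called higher. The list summed to 3.19 to 3.35 CPM against 0.773 to 1.02 CPM, led by these 2 genes. Ly6g went the other way, with 0 counts in both LPS columns and 4 and 6 in the NC columns, too few to be tested. Epididymal markers summed to 0.952 to 1.01 CPM in the LPS columns and 1.64 to 1.66 CPM in the NC columns. The 3 with the most counts were Ros1, Cst11 and Crisp1, and Crisp1 had 0 counts in both LPS columns. Of the 10 epididymal genes, 6 (Lcn5, Lcn8, Adam7, Adam28, Spag11b and Rnase10) were at 0 in all 4 libraries. The part of somatic cells in the levels of the acrosomal genes was not tested.

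Among 6085 genes in the CPM range of the 10 genes, those whose profile over the 4 libraries was most like the mean profile of the 10 were Gm45528, Smkr-ps, Gm9828, Fam83e and Btbd16. Likeness was the Euclidean distance between log2 CPM values centred on each gene's mean, and it ran from 0.0056 to 0.018 for these 5. Among the 10 genes themselves, Spaca3 at 0.058 and Izumo1 at 0.080 were nearest to the mean profile, and Spam1 at 0.46 and Spaca1 at 0.43 were farthest from it. Fam83e spans Spaca4 on the opposite strand without shared exonic bases, and was not called (log2 fold change -0.15 ± 0.08). With 4 libraries in 2 groups, such a profile holds little beyond the difference between the groups.

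Calls of the 10 genes were compared over 10 alternative settings, in which the share of all genes called also varied. It was 8.85% lower and 6.97% higher with DESeq2, 16.2% and 15.1% with limma-voom, 16.3% and 15.2% with RLE scaling, 9.52% and 9.22% with no filter, and 17.2% and 16.2% with a replicate block. Leaving out NC replicate 1 gave 11.3% lower and 11.1% higher, NC replicate 2 gave 12.4% and 11%, LPS replicate 1 gave 13.7% and 12.6%, and LPS replicate 2 gave 12.3% and 10.4%. Spam1, Acrbp, Acrv1 and Spaca1 kept their call and direction in all 10, over log2 fold changes of -0.74 to -0.52 for Spam1, -0.34 to -0.25 for Acrbp, -0.31 to -0.23 for Acrv1 and 0.20 to 0.33 for Spaca1. Acr lost its call in 5 of the 10 and Zpbp in 4. Spaca3, Spaca4, Izumo1 and Zpbp2 were called in none, and the fold changes of Spaca4 and Zpbp2 changed sign in 1 setting each.

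**Figure D4:**
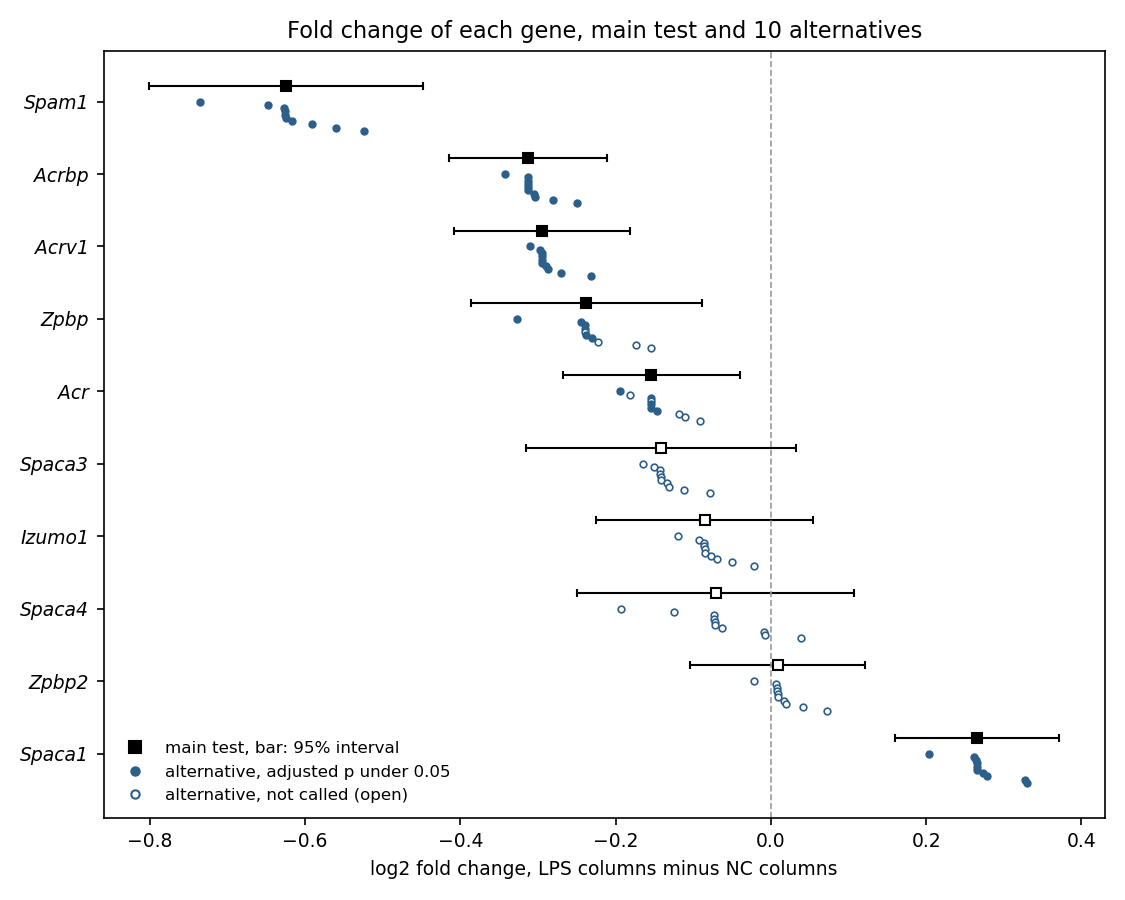
log2 fold change of each of the 10 genes in the main test (squares, with 95% intervals) and under 10 alternatives (circles), filled where the adjusted p was under 0.05. All circles of Spam1, Acrbp, Acrv1 and Spaca1 are filled, those of Acr and Zpbp are mixed, and those of the other 4 genes are open.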

How the data were processed

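The authors deposited raw read counts per gene, with gene lengths, for 4 whole testis libraries, which the labels' protocols describe as stranded mRNA libraries from TRIzol-extracted RNA. The submitters' processing notes name mm10 and, without roles, DESeq, edgeR 3.12.1, featureCounts, STAR 2.5.3a, Subread 1.5.1 and Trimmomatic 0.36. Not given in the sources used here are the annotation release, the strand setting and whether molecular identifiers were used.

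Genes were filtered (filterByExpr), scaled (TMM) and tested with edgeR 4.0.16, tried first on simulated counts; adjusted p-values are Benjamini-Hochberg values over 20855 genes, with 2 residual and 34.0 prior degrees of freedom. The SE is the one that F implies. Replicate pairs differed beyond sampling noise (chi-square per degree of freedom of 2.31 for LPS, 2.20 for NC). Positions match GENCODE M21 for all 10 genes, each protein-coding. Alternatives were DESeq2 1.42.0, limma-voom (limma 3.58.1), library size scaling, RLE scaling, no filter, a replicate block and each library left out.

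Genes named were the 10 members, all gamete fusion genes, up to 3 called genes per direction with the smallest adjusted p in other related lists, the 3 with most counts in marker lists and the 5 nearest profiles, from log2 of CPM plus 0.5. Spry1, genes that share exonic bases with a member and epididymal genes at 0 are named besides. Members and lists were chosen with earlier results of these data known. A planned comparison of protein sequences was not made.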

Additional observations from a re-analysis of the deposited data

How the results depend on the processing

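With DESeq2, 3 of the 10 genes were lower, as with library size scaling alone; Acr and Zpbp account for the lost calls. Of the related genes, 24 lower and 3 higher in the report, 19 were lower and 2 higher with DESeq2 and 18 lower and 5 higher with library size scaling. DESeq2 called 1845 of all genes lower (8.85%) and 1454 higher (6.97%). Leaving out 1 library gave 3 to 4 of the 10 genes lower, the 3 without NC replicate 1, and 1 higher each time, with 2425 to 2962 of all genes lower and 2255 to 2730 higher, 19 to 22 related genes lower and 2 to 3 higher. Log2 fold changes that changed sign in this way ran from -0.022 to 0.042 for Zpbp2, -0.19 to 0.038 for Spaca4, -0.030 to 0.056 for 4930451I11Rik and -0.062 to 0.10 for Izumo4, none of them called. The other settings left 5 of the 10 genes lower and 1 higher, as did the replicate block. Same-numbered libraries deviated from their group means with a correlation of 0.0155, so the numbers are not shown to pair them; the block changed no call of the 10 genes and gave 3594 lower and 3376 higher calls over all genes. The causes of these shifts were not tested. With 2 libraries a group, Spaca3 and Spaca4, at 380 to 539 counts, had 95% intervals from -0.32 to 0.03 and from -0.25 to 0.11.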
